A study of Mus musculus with 12 samples.

Results

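Genes that were nearly silent in wild-type mouse embryonic stem cells (ESCs) and present in ESCs lacking Dgcr8 (Dgcr8 KO) were examined as a group. The genes were selected on their total RNA: a protein-coding gene entered when its mean was under 1 CPM (reads of a gene per 1000000 reads counted in the library) over the 3 wild-type total libraries and at least 4 CPM over the 3 Dgcr8 KO total libraries. Of 21793 protein-coding genes among 51559 rows of the count table, 78 passed both limits, and 75 remained once Anxa3, Psmb8 and Ccnd2 were left out. Total RNA therefore chose these genes, and its values are given here only as a description. The tests use nascent RNA, which the selection did not use, although both fractions were split from the same RNA samples.

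Wild-type ESCs of the V6.5 line and Dgcr8 KO ESCs were both grown with serum, LIF and 2i, and both received 500 uM of the uridine analogue 4-thiouridine (4sU) for 30 min. RNA made during the pulse was captured through its 4sU and is called nascent, and RNA depleted of ribosomal RNA is called total. Each of the 4 groups held 3 replicates, and the Dgcr8 KO cells are named in the study as a line made earlier, with no second line here, so that a property of the line and the loss of Dgcr8 cannot be told apart. Libraries held 4593914 to 6005526 counts for wild-type nascent, 4775267 to 4998675 for Dgcr8 KO nascent, 6873708 to 9295245 for wild-type total and 7184551 to 9215024 for Dgcr8 KO total RNA. At these depths 1 CPM rests on a handful of reads, and single values near 0 are imprecise.

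DGCR8 is the RNA-binding partner of the nuclease DROSHA, and together they cut primary transcripts into the hairpins from which canonical microRNAs are made. ESCs without DGCR8 lack these microRNAs. The miR-290 family is abundant in mouse ESCs and shares its main seed with the miR-302 family. Pairing of this seed with a 3′ UTR lowers the stability and translation of the mRNA. A microRNA that acts on mature mRNA changes total RNA but not the rate of synthesis.

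Dgcr8 itself had nascent CPM of 113.4, 123.0 and 111.8 in wild-type cells and 74.6, 81.0 and 93.7 in KO cells. Its total RNA measured 94.3, 102.4 and 85.6 CPM in wild-type and 32.3, 32.7 and 30.9 CPM in KO libraries. The nascent log2 change was -0.51 (SE 0.0787, limma adjusted p = 1.95e-06). The KO libraries lay below the wild-type libraries in both fractions, although reads over the gene remained.

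The mature sequences of 4 microRNAs of these families are shown because their seed is what a switched-on transcript would have to match. They were taken from RefSeq (GRCm38.p6), are written 5′ to 3′, and carry bases 2 to 8 in capitals.
miR-294-3p: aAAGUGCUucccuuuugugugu
miR-291a-3p: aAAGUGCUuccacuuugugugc
miR-295-3p: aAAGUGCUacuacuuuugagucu
miR-302b-3p: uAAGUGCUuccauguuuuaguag
All 4 share the seed AAGUGCU. A 3′ UTR pairs with it through AGCACTT, or through GCACTTA when an A follows the hexamer GCACTT, and the combined form AGCACTTA is the longest of these sites.

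Sites for this seed were found at about the same share among the switched-on genes as among other tested genes. Of the 73 with an annotated 3′ UTR, 17 (23.3%) held AGCACTT or GCACTTA in the longest one, against 22.3% of the 11821 tested protein-coding genes with a 3′ UTR. The longest form AGCACTTA occurred in 3 (4.11%), against 3.79%. Median 3′ UTR length was 1269 bases against 1379 bases. The 3 genes with the longest form were Ehd2, Irf2 and Adgrg5, and Ehd2 held it at 2 places. A window of 30 bases around each of 5 sites is given below with the site in capitals (mm10, 5′ to 3′ on the gene's strand, which is minus for Ehd2 and plus for the others). Esr1 is added as the gene with the largest nascent change.
Ehd2, chr7:15950042-15950071: cattcagtgaaAGCACTTAtagaggaccag
Ehd2, chr7:15949668-15949697: gatatttattgAGCACTTActgtatgctgg
Irf2, chr8:46846653-46846682: ccttatcttgaAGCACTTAcaataggcctt
Adgrg5, chr8:94942403-94942432: gcaccctgctcAGCACTTAcagatacttac
Esr1, chr10:5001769-5001798: cacctctgataAGCACTTcataatggctcc
A match to these letters does not show that a site is used.

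Nearly all switched-on genes also rose in nascent RNA. Of the 75, 74 passed the filter on low counts (at least 3 CPM in at least 3 of the 12 libraries), and 70 of these (94.6%) were called higher in Dgcr8 KO nascent RNA (limma with Benjamini-Hochberg adjusted p under 0.05 and a log2 change over 1). None was called lower. Over all 14033 genes tested, 9.5% were called higher and 5.27% lower. The median nascent log2 change of the 74 genes was 3.13, against -0.016 over all genes tested, with a range from 0.66 for Ehd2 to 7.27 for Esr1. In 74 of the 75 genes all 3 KO nascent libraries lay above all 3 wild-type nascent libraries, a pattern seen for 30.9% of all genes tested. The exception was Tubg2. Most of the genes passed the filter through KO libraries, in which they are high, so the counts among genes that passed are a description. With no filter beyond 1 count, all 75 could be tested and 71 were called higher.

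Nascent levels in wild-type cells were low but seldom 0. The mean wild-type nascent level had a median of 0.70 CPM over the 75 genes and ranged from 0 to 5.28 CPM. It was under 1 CPM for 47 genes and at 1 CPM or more for 28, of which 5 reached 3 CPM (Ehd2, Exph5, Trim67, Slitrk5 and Apold1). In KO cells the median was 8.26 CPM, with a range from 1.43 for Alcam to 44.2 for Spry4. Summed over the 75 genes, nascent RNA reached 75.1, 78.1 and 85.5 CPM in the wild-type libraries and 816.1, 777.0 and 784.6 CPM in the KO libraries. No single KO library carried the difference. In these bulk libraries, more cells expressing a gene and more RNA per cell cannot be told apart.

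**Figure D1:**
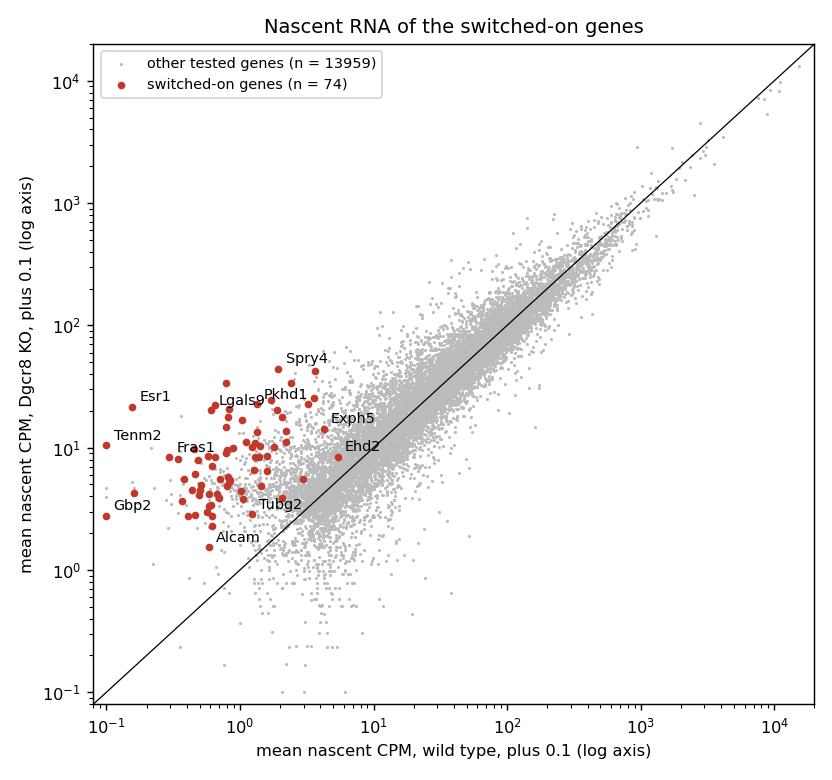
Mean nascent CPM in wild-type (x axis) and Dgcr8 KO cells (y axis), each plus 0.1 on a log axis, for 74 switched-on genes (red) and the other tested genes (grey). The red points lie above the line of equal level, from Ehd2 near it (5.28 and 8.33 CPM) to Tenm2 and Gbp2 at 0 CPM in wild-type cells.

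Compared per kb of exon, the switched-on genes remained below a typical gene even in KO cells. Their median nascent level was 0.254 CPM per kb in wild-type and 2.46 CPM per kb in KO cells, against 9.56 and 10.3 CPM per kb over tested protein-coding genes. The highest KO nascent levels per kb were those of Gm21060 (38.2 CPM per kb on only 168 exon bases), Irf2 (13.5 CPM per kb) and Lgals9 (12.5 CPM per kb).

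The genes were sorted into function groups by general knowledge of their products, after their names were known, and the groups carry no test of their own. The nascent change of each gene is drawn by group in the plot of change by function, and the groups are then taken in turn.

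**Figure D2:**
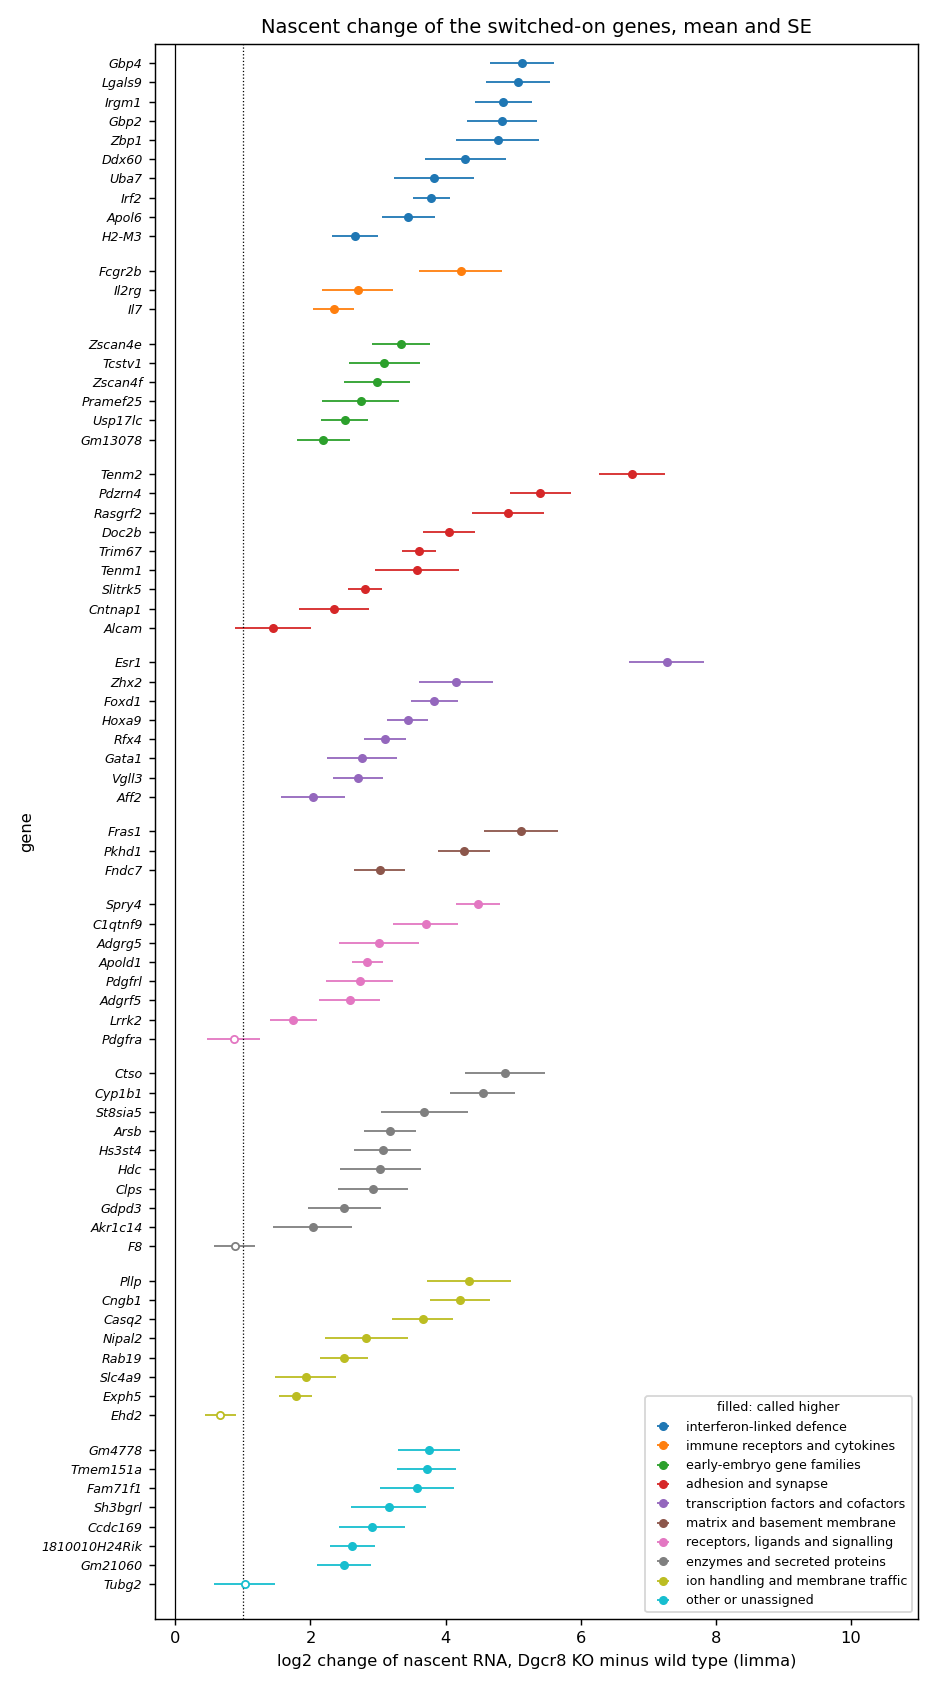
Nascent log2 change (Dgcr8 KO minus wild type, x axis, limma estimate with its SE) of 73 of the 74 tested genes, one per line and coloured by function group. Filled points were called higher, and the 4 open points are Ehd2, Pdgfra, F8 and Tubg2. Dotted line, log2 change of 1.

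Genes linked to interferon responses and innate defence formed one group of 10, and all 10 were called higher in nascent RNA, with a median log2 change of 4.53. Irf2 (ENSMUSG00000031627.9, mm10 chromosome 8, 46739732 to 46847458, plus strand), a transcription factor that binds interferon response elements, had the highest nascent level of the group, at 2.16, 2.18 and 2.60 CPM in wild-type and 35.4, 36.4 and 29.6 CPM in KO libraries. Its log2 change was 3.79 (SE 0.276, limma adjusted p = 3.81e-13). The 2 sets of libraries were far apart.

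Gbp4, an interferon-inducible guanylate-binding protein, measured 0.833, 0.435 and 0.371 CPM in wild-type and 21.4, 23.6 and 21.6 CPM in KO nascent libraries (log2 change 5.13, SE 0.473, limma adjusted p = 8.18e-11). Its relative Gbp2 had no read in any of the 6 wild-type libraries and 2.51, 2.20 and 3.29 CPM in the KO nascent libraries, at least 14.2-fold higher against 3 counts over the wild-type group. Irgm1, an immunity-related GTPase, measured 0.333, 1.31 and 0.556 CPM in wild-type and 21.4, 19.0 and 21.2 CPM in KO nascent RNA. For all 3 GTPases the KO libraries were well above every wild-type library, but these families hold close copies, and uniquely mapped reads can undercount them.

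Lgals9 (ENSMUSG00000001123.15, mm10 chromosome 11, 78962974 to 78984946, minus strand), which encodes galectin-9, had nascent values of 0.50, 0.653 and 0.371 CPM in wild-type and 23.5, 18.2 and 18.7 CPM in KO libraries. The log2 change was 5.07 (SE 0.467, limma adjusted p = 7.95e-11). Zbp1, a sensor of Z-form nucleic acid, measured 0.50, 0 and 0.556 CPM in wild-type and 7.33, 10.6 and 10.9 CPM in KO nascent libraries (log2 change 4.77, SE 0.619, limma adjusted p = 9.11e-08). These 2 genes also had the highest total RNA of the group in KO cells, at 24.3 to 29.8 CPM for Lgals9 and 11 to 14 CPM for Zbp1. The others were Ddx60, a helicase, Uba7, which activates the ubiquitin-like ISG15, the apolipoprotein L gene Apol6, and H2-M3, a non-classical MHC class I gene, with nascent log2 changes from 2.66 to 4.29.

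**Figure D3:**
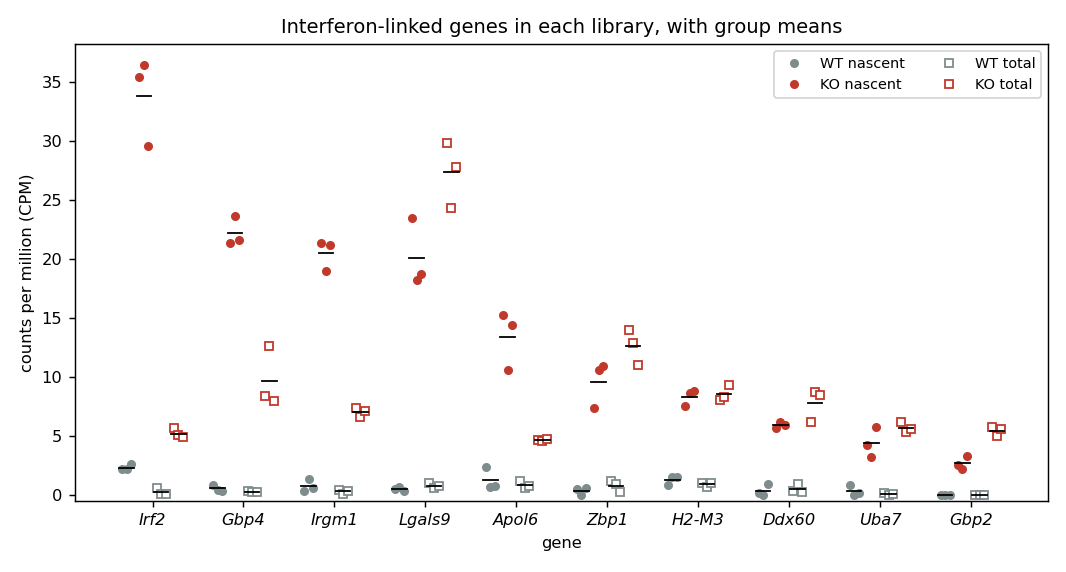
CPM (y axis) of the 10 interferon-linked genes in each of the 12 libraries, with wild-type in grey, Dgcr8 KO in red, nascent RNA as filled circles and total RNA as open squares. Black bars are group means. For each gene the KO points lie above the wild-type points of the same fraction, and Irf2 stands far higher in nascent than in total KO RNA.

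Promoters of this group were searched for a motif of the interferon response. The group was formed by known links to interferon, so finding the motif in it is a description and not a separate result. Median promoter GC was 46% in this group and 51% in other switched-on genes, against 56.3% over all protein-coding genes. The search did not allow for this difference. RefSeq promoters (250 bases before to 50 after the start, GRCm38.p6) were matched for 55 of the 75 genes. The motif GAAANNGAAA, the core of the interferon-stimulated response element, was searched on both strands, and overlapping matches were kept. It was found for 5 of the 7 interferon-linked genes with a promoter (Ddx60, Gbp2, Irf2, Irgm1 and Lgals9) and for 6 of the 48 other switched-on genes (12.5%), against 3.94% of 17491 protein-coding genes. The palindrome TTCNNNGAA, which STAT proteins bind, was found for 7 of the 55 (12.7%), against 8.92%. CpG-rich promoters (observed over expected CpG above 0.6 and GC above 50%) were fewer, at 27.3% of the 55 genes against 48.1%. The genes with no matched promoter included 3 of the interferon-linked group, Apol6, Gbp4 and Zbp1.

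Promoters of 4 interferon-linked genes that carry the motif GAAANNGAAA are shown, with matches in capitals. They run 5′ to 3′ on the gene's strand and lie in GRCm38 at chr3:142620413-142620712 (plus strand) for Gbp2, chr11:48871371-48871670 (minus) for Irgm1, chr11:78984875-78985174 (minus) for Lgals9 and chr8:61927837-61928136 (plus) for Ddx60.
Gbp2: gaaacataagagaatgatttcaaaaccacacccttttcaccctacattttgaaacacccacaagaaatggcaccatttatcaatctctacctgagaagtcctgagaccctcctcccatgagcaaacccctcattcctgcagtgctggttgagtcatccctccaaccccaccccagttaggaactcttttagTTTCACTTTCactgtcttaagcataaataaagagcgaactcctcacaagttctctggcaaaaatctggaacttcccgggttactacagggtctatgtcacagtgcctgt
Irgm1: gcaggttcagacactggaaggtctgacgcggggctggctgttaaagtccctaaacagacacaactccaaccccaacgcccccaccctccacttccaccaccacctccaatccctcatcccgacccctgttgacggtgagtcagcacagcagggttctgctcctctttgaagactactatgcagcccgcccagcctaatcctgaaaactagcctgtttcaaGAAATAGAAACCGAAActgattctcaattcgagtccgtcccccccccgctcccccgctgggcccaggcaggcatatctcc
Lgals9: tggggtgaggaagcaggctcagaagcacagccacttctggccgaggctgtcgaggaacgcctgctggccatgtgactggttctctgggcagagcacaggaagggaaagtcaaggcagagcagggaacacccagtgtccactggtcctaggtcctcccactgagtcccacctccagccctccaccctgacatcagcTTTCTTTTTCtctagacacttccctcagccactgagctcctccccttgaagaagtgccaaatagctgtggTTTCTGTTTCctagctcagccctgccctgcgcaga
Ddx60: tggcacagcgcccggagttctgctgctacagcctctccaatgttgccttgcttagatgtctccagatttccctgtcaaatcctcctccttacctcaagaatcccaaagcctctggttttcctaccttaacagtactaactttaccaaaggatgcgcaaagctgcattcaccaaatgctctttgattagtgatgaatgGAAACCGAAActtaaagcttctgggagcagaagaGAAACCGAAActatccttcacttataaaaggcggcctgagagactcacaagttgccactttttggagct
A match in these letters is a description of the window and does not show that a factor binds there.

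A broader list of 30 interferon-induced genes, chosen after the names above were known and holding none of them, was counted beside them. Of 15 that could be tested in nascent RNA, 9 were called higher and 0 lower, against 9.5% and 5.27% of all genes tested. The genes called higher included Oasl1, Oas1a, Oas2, Irf9, Xaf1, Parp14, Igtp and Tap1. Parp14 had the largest change (log2 2.45, SE 0.195, limma adjusted p = 3.10e-12), from a mean of 4.98 to 27.0 CPM. Of the 6 not called, Irgm2, Parp9, Irf1 and Cmpk2 had log2 changes just under the limit of 1, at 0.98, 0.95, 0.93 and 0.88 (limma adjusted p of 2.12e-05, 1.00e-08, 9.15e-12 and 0.0208), and Stat2 and Bst2 had 0.02 and 0.07. The other 15 were too low to be tested. Mean nascent CPM in wild-type and KO cells was 0.145 and 1.71 for Oasl2, 0.0618 and 1.64 for Rsad2, 0 and 1.51 for Gbp7 and 0.111 and 0.880 for Irf7. It was 0.0555 and 0.619 for Isg15, 0 and 0.620 for Ifit1 and 0 and 0.135 for Usp18. Mx2 (0.0726 and 0.277) and Gbp3 (0 and 0.135) were also higher in KO cells. Ifit2 (0.222 and 0) and Mx1 (0.1899 and 0.0667) were lower. Ifit3, Ifi44, Gbp5 and Iigp1 had no read in any library. Summed over the 30 genes, nascent RNA was 236.1 to 279.5 CPM in wild-type and 493.1 to 555.1 CPM in KO libraries. Abundant genes weigh most in this sum, among them Irf1 (mean 103.9 to 200.6 CPM) and Irf9 (39.3 to 81.2 CPM). It does not describe each gene of the list.

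Immune receptors and cytokines made up 4 genes. Fcgr2b, an inhibitory Fc receptor, measured 0, 0.435 and 1.11 CPM in wild-type and 5.86, 8.2 and 6.99 CPM in KO nascent libraries. Il7, a lymphoid growth factor, went from 1.83, 2.61 and 1.85 CPM to 10.7, 10.4 and 11.7 CPM. Both were called higher, with log2 changes of 4.22 and 2.34. Il2rg, the common gamma chain of interleukin receptors, was also called higher (log2 2.70, SE 0.528, limma adjusted p = 6.27e-05), but 43.6% of its exon bases overlap Gm20489 on the same strand, and reads there cannot be assigned to either. The mannose receptor gene Mrc1 did not reach 3 CPM in enough libraries to be tested: its nascent CPM were 0.666, 0.435 and 0.742 in wild-type and 2.72, 1.20 and 2.06 in KO libraries. With no filter beyond 1 count it was called higher.

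The 6 genes of early-embryo families, Zscan4e, Zscan4f, Tcstv1, Usp17lc, Pramef25 and Gm13078, were all called higher, with log2 changes from 2.19 to 3.34. Zscan4 genes encode zinc-finger proteins expressed at the 2-cell stage and in a small share of cultured ESCs. Zscan4e measured 0.666, 1.09 and 1.30 CPM in wild-type and 12.1, 12.2 and 8.63 CPM in KO nascent libraries. Zscan4f measured 0.333, 1.52 and 0.371 CPM against 7.33, 4.2 and 4.52 CPM. The groups did not overlap for either gene.

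These families are near-identical tandem copies, so uniquely mapped counts cannot be divided among copies with certainty. A list of 2-cell-like markers that includes 2 of the 6 was counted beside them. All 9 that could be tested were called higher in nascent RNA, against 9.5% of all genes tested. Among them were Zscan4d (mean 3.60 to 24.8 CPM), Tcstv3 (0.512 to 5.39 CPM), Zfp352 (1.16 to 4.37 CPM) and Duxf3 (0.384 to 4.99 CPM), a copy of the 2-cell transcription factor gene Dux. Several of the 9, such as Tcstv3, Zfp352 and Duxf3, averaged under 3 CPM in both wild-type fractions. These passed the filter mainly through KO libraries, in which they are high, so the count is a description. The summed nascent level of the list was 11.9 to 15.0 CPM in wild-type and 75 to 87.2 CPM in KO libraries, and the part of a 2-cell-like subpopulation in this difference was not tested.

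Adhesion and synaptic genes were a group of 10, all called higher in nascent RNA, with a median log2 change of 3.76. Tenm2 (ENSMUSG00000049336.16, mm10 chromosome 11, 36006656 to 37235882, minus strand), a teneurin that links neurons across the synapse, had no read in any wild-type library. Its KO nascent values were 11.5, 10.4 and 9.25 CPM, at least 55.3-fold higher against 3 counts over the wild-type group. Tenm1 measured 0.833, 0 and 0.371 CPM in wild-type and 2.72, 5.20 and 5.34 CPM in KO nascent libraries. Of the other teneurins, Tenm4 was called higher (log2 1.37) from a mean of 92.3 CPM, and Tenm3 had a log2 change of 0.45.

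Pdzrn4 (ENSMUSG00000036218.15, mm10 chromosome 15, 92396915 to 92771819, plus strand), a PDZ and RING domain protein, measured 0.666, 0.653 and 0.742 CPM in wild-type and 39.4, 28.0 and 34.5 CPM in KO nascent libraries (log2 change 5.40, SE 0.448, limma adjusted p = 7.50e-12). Trim67, a TRIM ubiquitin ligase expressed in neurons, went from 2.33, 5.01 and 3.34 CPM to 46.1, 40.0 and 39.7 CPM (log2 change 3.60, SE 0.25, limma adjusted p = 1.15e-13). Rasgrf2, a Ras exchange factor of neurons, went from 0.167, 0 and 0.556 CPM to 7.54, 8.2 and 8.01 CPM (log2 change 4.92, SE 0.533, limma adjusted p = 2.61e-09). In each of these genes the lowest KO library stood clear of the highest wild-type library.

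The calcium sensor gene Doc2b had a nascent log2 change of 4.05. Slitrk5 and Cntnap1 were also called higher (2.81 and 2.35). Alcam, a cell adhesion molecule, was the weakest of the group, at 0.50, 0.218 and 0.742 CPM in wild-type and 1.47, 1.60 and 1.23 CPM in KO nascent libraries (log2 change 1.44, SE 0.562, limma adjusted p = 0.0293). Its call was lost without wild-type nascent replicate 1 or 2, or without KO nascent replicate 2. In a list of 20 synaptic adhesion genes, which includes 3 of the switched-on genes, 5 of 13 tested were called higher and 2 lower, the latter Flrt3 and Cntnap2, so genes of this kind did not all move one way.

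Transcription factors and cofactors numbered 8, and all were called higher. Esr1 (ENSMUSG00000019768.16, mm10 chromosome 10, 4611989 to 5005614, plus strand), the estrogen receptor alpha gene, had the largest nascent change of the 74 genes tested. It had 1 read over the 3 wild-type nascent libraries (0.167, 0 and 0 CPM) and 25.8, 19.4 and 19.5 CPM in the KO libraries. The fitted log2 change was 7.27 (SE 0.555, limma adjusted p = 1.14e-12), and the ratio of summed counts was 344.0 with a 95% counting interval from 61.3 to 13633, for which counting error alone was considered. Among 9 nuclear steroid receptor genes, 5 could be tested, of which Esr1 and Nr3c1 were called higher and Nr3c2 lower.

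Hoxa9 (ENSMUSG00000038227.15, mm10 chromosome 6, 52223100 to 52227370, minus strand), a homeobox gene of axial patterning, measured 1.5, 2.18 and 1.67 CPM in wild-type and 20.7, 22.2 and 17.7 CPM in KO nascent libraries (log2 change 3.44, SE 0.301, limma adjusted p = 2.74e-11). Foxd1, a forkhead factor of kidney stroma, went from 2.00, 1.31 and 1.48 CPM to 24.7, 21.6 and 27.5 CPM (log2 change 3.84, SE 0.344, limma adjusted p = 4.48e-11). Rfx4, a factor of neural tube and cilia genes, went from 2.66, 1.52 and 1.67 CPM to 21.2, 16.4 and 15.8 CPM (log2 change 3.10, SE 0.312, limma adjusted p = 5.57e-10). These 3 factors belong to different lineages. Gata1, the erythroid factor, remained low in KO cells at 2.30, 3.00 and 2.67 CPM, and the hemoglobin genes Hbb-bt and Hba-a1 had no read in any library. Zhx2, Vgll3 and Aff2 completed the group, with log2 changes of 4.15, 2.70 and 2.04.

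A group of 3 genes was sorted under matrix and basement membrane, which is a loose label. It included Pkhd1, the polycystic kidney disease gene that encodes fibrocystin (ENSMUSG00000043760.16, mm10 chromosome 1, 20057779 to 20618064, minus strand). Pkhd1 had the highest total RNA of the 75 genes in KO cells, at 27.9, 26.6 and 31.5 CPM against 0.582, 0.450 and 0.538 CPM in wild-type cells. Its nascent RNA went from 0.50, 1.52 and 1.67 CPM to 18.4, 23.8 and 25.7 CPM (log2 change 4.27, SE 0.383, limma adjusted p = 4.67e-11). Fras1, a basement membrane protein of skin and kidney, went from 0, 0.218 and 0.371 CPM to 10.5, 7.0 and 7.40 CPM in nascent RNA. Its wild-type value rested on 3 reads, which gave a ratio of 44.1 (95% counting interval 14.7 to 216.6). Fndc7, a fibronectin type III domain gene, was the third, with a log2 change of 3.02. Of the 3, only Fras1 is described here as a basement membrane protein, so the group is not a set of matrix genes. In a list of 20 extracellular matrix genes that holds none of these, 2 of 11 tested were called higher and 3 lower. That count describes the listed matrix genes and not the group.

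Among 8 receptors, ligands and signalling genes, 7 were called higher. Spry4 (ENSMUSG00000024427.6, mm10 chromosome 18, 38586268 to 38601268, minus strand), an inhibitor of receptor tyrosine kinase signalling that is itself induced by ERK activity, measured 2.16, 1.31 and 2.04 CPM in wild-type and 40.0, 38.0 and 54.7 CPM in KO nascent libraries (log2 change 4.48, SE 0.328, limma adjusted p = 4.13e-13). C1qtnf9, a secreted relative of adiponectin, went from 0.666, 0.218 and 1.48 CPM to 9.0, 11 and 9.66 CPM (log2 change 3.71, SE 0.482, limma adjusted p = 9.31e-08). Lrrk2, a kinase linked to Parkinson disease, went from 1.5, 0.871 and 1.67 CPM to 4.19, 4.80 and 5.34 CPM (log2 change 1.75, SE 0.351, limma adjusted p = 8.85e-05). The KO libraries lay above the wild-type libraries in all 3. The adhesion receptor gene Adgrg5 went from 0.666, 0.871 and 0 CPM to 3.35, 3.40 and 3.08 CPM (log2 change 3.01, SE 0.594, limma adjusted p = 7.05e-05). Pdgfra, a platelet-derived growth factor receptor and marker of primitive endoderm, was not called, with nascent values of 2.33, 1.31 and 2.23 CPM in wild-type and 3.56, 5.20 and 2.67 CPM in KO libraries (log2 change 0.87, SE 0.391, limma adjusted p = 0.0592).

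Of 10 genes for enzymes and secreted proteins, 9 were called higher. Cyp1b1 (ENSMUSG00000024087.3, mm10 chromosome 17, 79706953 to 79715041, minus strand), a cytochrome P450 of estrogen and xenobiotic metabolism, measured 0.666, 1.09 and 0.371 CPM in wild-type and 18, 21.2 and 13.8 CPM in KO nascent libraries (log2 change 4.55, SE 0.484, limma adjusted p = 1.84e-09). Ctso, a cysteine protease, had 1 read over the wild-type nascent libraries and 3.14, 3.20 and 6.17 CPM in the KO libraries, a ratio of 66.6 (95% counting interval 11.5 to 2674). Both were clear of wild-type. The coagulation factor gene F8 was not called, since its log2 change was under 1 (0.88, SE 0.298, limma adjusted p = 0.0130), although its KO values of 7.12, 5.40 and 3.90 CPM lay above the wild-type values of 2.33, 3.27 and 2.97 CPM. Akr1c14, an aldo-keto reductase gene of steroid metabolism with close relatives, went from 0.5, 0.871 and 0.185 CPM to 2.51, 1.40 and 2.67 CPM (log2 change 2.03, SE 0.582, limma adjusted p = 0.00364). The sulfatase gene Arsb was called higher (log2 3.17). Overlapping genes on the opposite strand cover 59.7% of its exon bases, and counting was done by strand.

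Ion handling and membrane traffic took in 8 genes, 7 of them called higher. Casq2 (ENSMUSG00000027861.13, mm10 chromosome 3, 102086415 to 102146514, plus strand), the calcium-binding protein of cardiac sarcoplasmic reticulum, measured 0.666, 0.435 and 0.556 CPM in wild-type and 7.54, 8.80 and 8.43 CPM in KO nascent libraries (log2 change 3.66, SE 0.451, limma adjusted p = 3.41e-08). In a list of 20 genes of calcium handling and the sarcomere, 7 were tested. Casq2, itself a switched-on gene, and the atrial myosin light chain gene Myl7 were called higher, and none was called lower. Over all genes tested 9.5% were called higher and 5.27% lower, but a list of 7 that holds a selected gene gives no firm share. Short of the limit, Ryr1 and Des were lower, with log2 changes of -0.79 and -0.86 (limma adjusted p of 3.23e-05 and 0.0172). Ryr2, Atp2a2 and Ttn were higher, with log2 changes of 0.86, 0.49 and 0.42. Exph5, a RAB27 effector, went from 4.33, 2.18 and 5.93 CPM to 14.9, 12.8 and 14.8 CPM (log2 change 1.78, SE 0.246, limma adjusted p = 2.71e-07). The bicarbonate transporter gene Slc4a9 went from 1.67, 0.435 and 0.742 CPM to 4.4, 3.80 and 2.88 CPM (log2 change 1.93, SE 0.449, limma adjusted p = 0.000503). Both were called higher with no overlap between the genotypes, as were Pllp, Cngb1, Rab19 and Nipal2, with log2 changes of 2.5 to 4.35.

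Ehd2 (ENSMUSG00000074364.6, mm10 chromosome 7, 15946958 to 15967567, minus strand), which shapes caveolae at the plasma membrane, stood apart within that group. Its nascent RNA was already 4.50, 3.92 and 7.42 CPM in wild-type cells and 7.54, 8.60 and 8.84 CPM in KO cells (log2 change 0.66, SE 0.232, limma adjusted p = 0.0155), and the change was under the limit of 1. Its total RNA was 0.582, 0.450 and 0.753 CPM in wild-type and 4.67, 5.84 and 4.73 CPM in KO libraries. The KO libraries were thus higher in both fractions, with the wider gap in total RNA, the fraction that chose the gene. F8, Pdgfra and Tubg2, the other tested genes that were not called, likewise had the wider gap in total RNA. Their total log2 changes were 2.55, 2.20 and 3.06, beside nascent changes of 0.88, 0.87 and 1.03. The 3′ UTR of Ehd2 carries AGCACTTA at 2 places, as shown above, and AGCACTT, the shorter site, once more. No AGCACTT or GCACTTA was found for F8, Pdgfra or Tubg2. Whether the sites of Ehd2 have a part in its total RNA was not tested.

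The remaining 8 genes had other or unassigned functions, and 7 were called higher. Sh3bgrl, a small thioredoxin-fold protein, measured 0.333, 0.653 and 0.185 CPM in wild-type and 2.51, 4.6 and 4.93 CPM in KO nascent libraries (log2 change 3.16, SE 0.552, limma adjusted p = 1.33e-05). Gm21060, a gene model of 168 exon bases, went from 0.833, 1.96 and 0.742 CPM to 6.28, 6.60 and 6.37 CPM (log2 change 2.5, SE 0.397, limma adjusted p = 3.00e-06). The gamma-tubulin gene Tubg2 was not called (log2 change 1.03, SE 0.453, limma adjusted p = 0.0536). Its KO nascent values of 4.4, 2.60 and 1.23 CPM overlapped the wild-type values of 1.17, 1.31 and 0.927 CPM, and it lies 14254 bases from Cntnap1, another switched-on gene.

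The balance of total to nascent RNA within KO cells varied widely among the genes. This ratio holds the total RNA that chose them and is described without a test. The median log2 ratio of total to nascent CPM was -0.21 over the 75 genes and 0.09 over 11828 tested protein-coding genes, whose lower and upper quartiles were -0.74 and 0.78. Below the lower quartile lay 23 of the switched-on genes, and above the upper lay 10. Spry4 had the lowest ratio, at -3.13, -2.90 and -3.71 in the 3 KO replicates, with nascent RNA of 38.0 to 54.7 CPM beside total RNA of 4.18 to 5.09 CPM. Irf2 (-2.70), Cyp1b1 (-2.14), Esr1 (-2.08) and Foxd1 (-2.04) followed. In these 5 genes total CPM in KO cells was well under nascent CPM. At the other end, Sh3bgrl (1.59), Alcam (1.56), Casq2 (1.53), Adgrg5 (1.17) and Akr1c14 (1.07) had higher CPM in total than in nascent libraries. Each library is scaled to its own depth, so the ratio does not compare amounts of RNA.

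**Figure D4:**
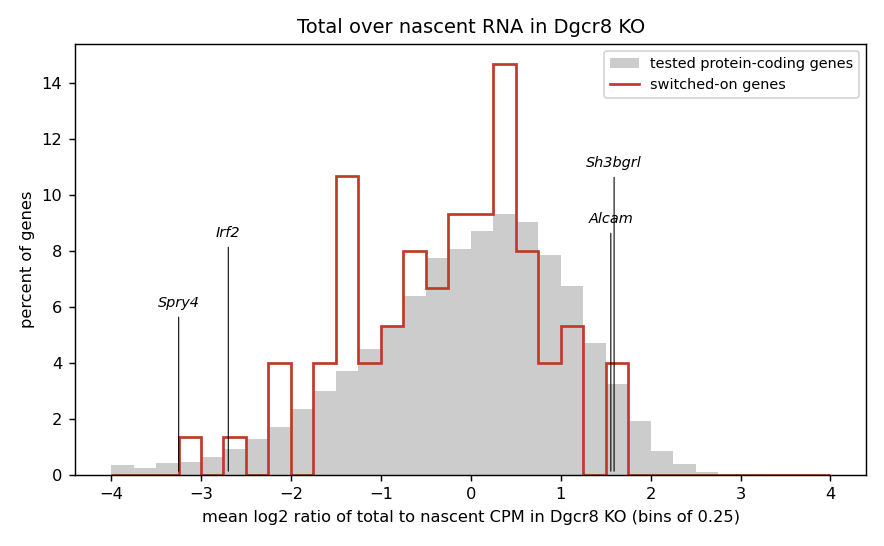
Percent of genes (y axis) by mean log2 ratio of total to nascent CPM in Dgcr8 KO cells (x axis, bins of 0.25), for tested protein-coding genes (grey) and the 75 switched-on genes (red line). Spry4 at -3.25 and Irf2 at -2.70 mark the low end, and Alcam at 1.56 and Sh3bgrl at 1.59 the high end.

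The limits of the selection cut through a continuum. Just inside the KO limit lay Lrrk2, Mrc1 and Cyp1b1, at 4.02, 4.04 and 4.08 CPM of total RNA, and just outside lay, among others, Trim36 and Adgrg7, at 3.97 and 3.94 CPM. On the wild-type side, Alcam, Gm21060 and Sh3bgrl (0.997, 0.936 and 0.935 CPM) lay inside and Gm21761, Usp17le and Cep112 (1.01, 1.01 and 1.01 CPM) outside.

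Markers of ESCs and of other lineages were counted to check the labelled cell type. Summed nascent CPM of 10 ESC markers was 6277 to 6400 in wild-type and 7278 to 7743 in KO libraries, and none of the 10 was called in either direction. Few markers of other lineages passed the filter. Those called higher were Twist1 of 2 fibroblast markers tested, Kdr of 3 mesoderm markers and Gata1, itself a switched-on gene, of 4 blood markers, and none of 2 primitive endoderm and 3 trophoblast markers was called. Tubb3 was called lower among 3 neural markers. The fibroblast marker Pdgfrb and the mesoderm markers Mixl1 and Nkx2-5 were lower but just short of the limit. Their log2 changes were -0.99, -0.94 and -0.91 (limma adjusted p of 0.000376, 0.0117 and 0.0325). Other markers short of the limit went both ways. Spi1 and Cd68 of blood, Gata4 of primitive endoderm, Tfap2a of trophoblast and Sox1 of neural markers were higher. The log2 changes of these were 0.78, 0.46, 0.52, 0.53 and 0.41 (limma adjusted p of 0.0036, 0.00531, 0.00585, 4.29e-06 and 0.00178). Gata3 of trophoblast and Olig2 of neural markers were lower, at -0.49 and -0.41 (limma adjusted p of 0.0007 and 0.000114). The fibroblast genes Dcn, Postn and Fap had no read in any library. Primitive endoderm markers too low to be tested went both ways in mean nascent CPM. From wild-type to KO cells, Sox17 (3.15 and 0.756), Dab2 (2.40 and 0.138), Gata6 (1.21 and 0.407) and Ttr (0.111 and 0) were lower. Amn (0.380 and 1.03), Foxa2 (0.295 and 0.613) and Sox7 (0.117 and 0.279) were higher. Summed nascent CPM was 11.5 to 18.1 in wild-type and 12.8 to 16.8 in KO libraries for fibroblast markers, and 25 to 27.0 and 36.4 to 41.0 for blood markers. Lists of axon guidance (1 higher and 4 lower of 14), voltage-gated ion channel (2 and 2 of 8), germline (2 and 4 of 14) and cytokine and growth factor genes (3 and 4 of 11) had calls in both directions, against 9.5% higher and 5.27% lower over all genes tested.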

How the data were processed

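Nascent (4sU) and total RNA of wild-type and Dgcr8 KO mouse ESCs was sequenced in 12 libraries, 3 replicates for each of 4 groups. The deposited values are raw counts of reads on each gene, whole numbers with no scaling. By the study's methods and the file header, the authors trimmed reads with cutadapt 1.14, mapped them uniquely with STAR 2.5.3a to mm10 and counted them by strand with featureCounts 1.5.3 against GENCODE M14, which leaves near-identical genes under-counted. The labels do not say whether replicates are separate cultures grown apart, so p-values measure the spread between these samples.

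Of 51559 rows, 51274 matched GENCODE M21 (GRCm38), the source of biotypes, symbols and 3′ UTRs. Coordinates of genes are those of the deposited table. Genes with at least 3 CPM in at least 3 libraries were scaled by TMM (edgeR 4.0.16) and fitted with limma 3.58.1 and voom weights in R 4.3.3, with all 12 libraries and 4 groups, and KO was compared with wild type in nascent RNA. Calls needed a Benjamini-Hochberg adjusted p under 0.05 over all genes tested and an absolute log2 change over 1. The fit was tested on simulated data with known changes. Per-library values are CPM by library size, errors are SD or SE as named, and counting intervals (95%) and the floor of 3 counts cover counting error only.

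The switched-on genes, the function groups and the gene lists were chosen with earlier results of these data known. Genes with full values are the 12 with the highest KO total RNA, the 8 largest and 8 smallest nascent changes, those next to the limits and those with the 5 highest and 5 lowest ratios of total to nascent RNA. Other genes are given as examples of their groups and were chosen after their values were seen. A few genes that enter the counts are not reported here by name. Alternatives were the quasi-likelihood test of edgeR, DESeq2 1.42.0, other scalings, filters and limits, a replicate block, and leaving out each replicate. The table has 92 rows of ERCC sequences with 1 count in all, so no absolute scale was available.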

Additional observations from a re-analysis of the deposited data

How the results depend on the processing

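The nascent median of the switched-on genes (3.13, log2) stayed within 3.11 to 3.27 when each nascent library was left out in turn and was 3.45 with a filter on nascent libraries, where 59 genes were tested. Under that filter 57 were called higher. Genes such as Gbp2, Gata1, Sh3bgrl and Tenm1 could no longer be tested, since they had passed the main filter with the help of KO total libraries, which chose them. The number of switched-on genes called higher ranged from 69 to 73 when each replicate was left out, and 73 came without KO nascent replicate 3. The number of all genes called, 2073, ranged from 1896 to 2017 in the same way, and was 3801 with no filter beyond 1 count and 7898 with no limit on the log2 change. The number of switched-on genes was 72 to 84 when each total library was left out, 29 with wild-type mean under 0.5 CPM and 17 with KO mean of at least 8 CPM. Genes whose nascent groups lay apart numbered 74 to 75 without 1 library. Same-numbered wild-type and KO nascent samples did not deviate together (correlations of -0.083, 0.078 and -0.013). No sign of pairing by number was seen, but correlations over 3 replicates cannot show that the samples were unpaired. A replicate block gave 71 switched-on genes and 2039 of all genes called, with a median of 3.08. Of 428 alternative values for 31 named genes, 417 kept their side of the threshold, 4 lost it, 7 gained it and 0 reversed. Settings in which a gene could not be tested are not among the 428. Alcam lost its call in DESeq2 and in 3 left-out settings, Tubg2 gained one under edgeR, DESeq2, library size scaling, the block and without KO nascent replicate 3, and F8 and Pdgfra gained one without KO nascent replicate 3. The cause was not tested. Depth limits the wild-type values: 5 genes rested on at most 3 reads over the 3 wild-type nascent libraries.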

Other observations

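Genes next to the switched-on genes were counted as well. Within 100000 bases of them, 192 other tested genes were found, of which 35 (18.2%) were called higher in KO nascent RNA and 8 (4.17%) lower, against 9.5% and 5.27% of all genes tested. Beside Hoxa9, 6 of the 9 tested neighbours were called higher, and these included Hoxa2, Hoxa5, Hoxa7, Hoxa10 and, on the opposite strand, Evx1, with log2 changes of 3.41, 2.89, 2.02, 2.15 and 3.78. Hoxa3, with 0.80, was not called. Hoxa9 was picked out after these values were seen, and without its neighbours the count was 29 of 183 (15.8%). Fras1 lies 8657 bases from Anxa3, which was also higher (log2 5.72). Anxa3 passed both limits of the selection and was left out by name, yet it counts among the 35 neighbours called higher. Gbp9, a relative of Gbp4 that overlaps it on the same strand, counts there too. The share of 18.2% thus holds genes that are not separate from the selection.

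The switched-on genes were spread over 19 chromosomes, with at most 7 on any of them, and 11 lay within 1000000 bases of another. Pllp, Adgrg5 and Cngb1 lie together on chromosome 8, Lrrk2 and Pdzrn4 on chromosome 15, Tubg2 and Cntnap1 on chromosome 11, and the copies Zscan4e and Zscan4f on chromosome 7 and Gm13078 and Pramef25 on chromosome 4. Median nascent log2 changes over all tested genes of a chromosome ranged from -0.13 on chromosome 8 to 0.09 on chromosome 12, which held none of the switched-on genes.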
